A study of Mus musculus with 12 samples.

Results

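The lysate response of wild-type dendritic cells is the change in transcript levels between dendritic cells kept alone and dendritic cells cultured with dead tumour cells. The comparison takes 4 of the 12 samples of the series, 2 libraries of wild-type (wt) cells alone and 2 libraries of wt cells with lysate, and all 11785 genes that could be tested. Dendritic cells were grown from mouse bone marrow with the cytokine GM-CSF. The lysate was made of necrotic cells of B16-OVA, a mouse melanoma line that carries the chicken antigen ovalbumin; contact lasted overnight, and the dendritic cells were purified before RNA was taken. The other libraries with values came from Ythdf1-/- cells in both conditions, 2 libraries each, and entered the fit only to share its estimate of the spread and to test where the response differed. Ythdf1 encodes a reader of the N6-methyladenosine mark on mRNA. The labels give no age, sex or strain of the mice. Nor do they say if paired libraries stem from different mice or different dishes, so the p-values reflect how far these samples scatter, and that scatter may be purely technical. They give no separate protocol for cells kept alone, and any other difference in handling is part of the comparison.

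Dendritic cells take up debris of dying cells, break it down in acid lysosomes and present peptides of it on MHC class I and class II molecules to T cells. Cells that have taken up dead cells must also deal with the haem, iron, lipid and cholesterol that these carry. Bone marrow cultures grown with GM-CSF hold macrophage-like cells beside dendritic cells.

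Levels are deposited log2 values per gene. Taken over genes, replicate 1 minus replicate 2 had an SD of 0.139 for wt alone and 0.143 for wt with lysate. Of the dendritic cell markers 13 of 15 were measured, among them Itgax at 11.38 and 11.40 alone and 11.52 and 11.37 with lysate (named after its value was seen). The log2 of the summed level of this marker list was 17.47 and 17.60 alone and 17.12 and 17.14 with lysate. Of its 13 measured members 6 fell (46.2%) and 0 rose (median change -0.25), against 11.3% and 10.2% of all genes tested. The list holds the MHC class II genes H2-Ab1, H2-Eb1 and Cd74, whose falls are given below. Genes of high level weigh most in such a sum. All 18 macrophage and monocyte markers were measured too, with summed levels of 18.05 and 18.07 alone and 17.94 and 17.93 with lysate, and 15 of 16 neutrophil markers, with summed levels of 15.12 and 15.03 alone and 14.93 and 15.06 with lysate. Of the macrophage and monocyte markers 3 rose (16.7%) and 7 fell (38.9%), and of the neutrophil markers 1 rose (6.67%) and 4 fell (26.7%). None of 11 erythroid markers, 1 of 9 B cell markers and 2 of 13 T and NK cell markers were in the table. In such bulk samples fewer cells of a type and less RNA per cell cannot be told apart.

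GC content of the transcripts moved with the response. Across 11486 genes the log2 change had a rank correlation of -0.38 with GC content and of 0.00 with length, and genes are not independent replicates. The median change was 0.13 in the 10% of genes with the lowest GC content and -0.15 in the 10% with the highest. The difference between both libraries of wt alone followed GC content more closely (rank correlation -0.70, against -0.25 for wt with lysate). After a smooth trend on GC content and length was taken out of every library, 2237 of the 2534 called genes (88.3%) were called again in the same direction.

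**Figure D1:**
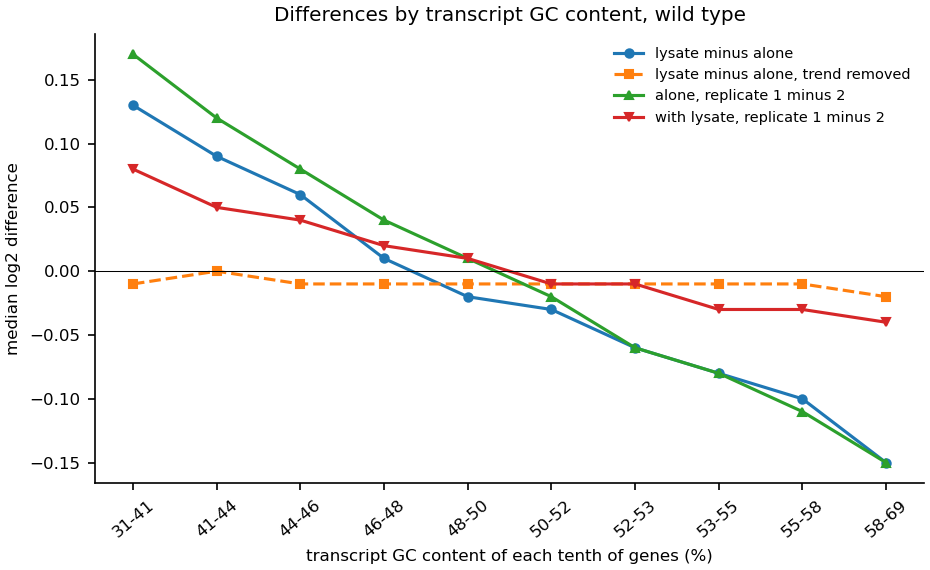
Median log2 difference (vertical axis) in 10 equal bins of the genes ordered by transcript GC content (horizontal axis, %), for lysate minus alone, the same after removal of the trend, and replicate 1 minus 2 in each wild-type group. The lysate change runs from 0.13 to -0.15 and the difference between the libraries of cells alone from 0.17 to -0.15, while the change after removal lies between -0.02 and 0.00.

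Between the wild-type libraries with lysate and those of cells alone 2534 genes were called, mostly for small changes. At an adjusted p under 0.05, 1205 genes rose (10.2% of the genes tested) and 1329 fell (11.3%). The median size of a called change was 0.35 on the log2 scale, and the median change of all genes was -0.01. A rise of at least 2-fold was called for 26 genes (0.221%) and such a fall for 3 genes (0.0255%). No called gene had overlapping libraries, but 60.8% of all genes tested had none either. The 19 alternative fits changed the filter, the scaling, the model of the spread, the libraries used or the GC and length trend. Some added a block for the replicate number, as numbered or crossed. In every alternative fit that tested them 421 of these genes rose (3.57% of the genes tested) and 374 fell (3.17%). A gene left out of a fit by its filter was counted over the other fits, here and wherever every alternative fit is named below. Without the second library of cells alone 546 rose and 485 fell, and without the first library with lysate 555 rose and 549 fell. Rises made up 47.6% of the calls in the fit as designed, 50.6% after removal of the GC and length trend and 52.2% with each library centred on one median.

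**Figure D2:**
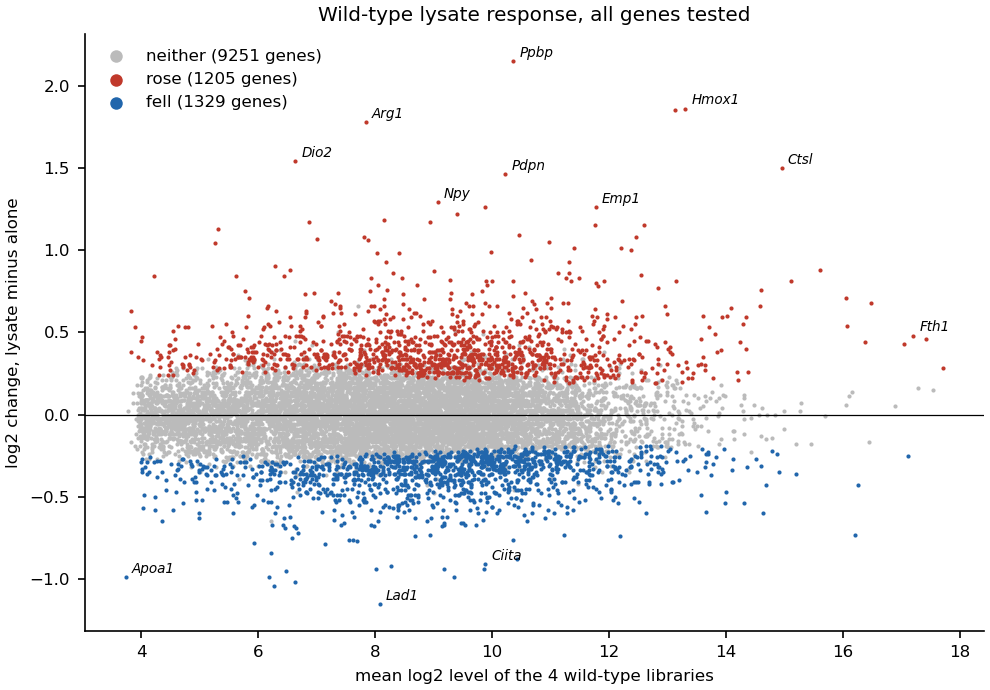
Log2 change (vertical axis, lysate minus alone) against the mean log2 level of the 4 wild-type libraries (horizontal axis), 1 point per gene tested, with genes that rose in red and genes that fell in blue. The rises reach 2.15 (Ppbp) and the falls -1.15 (Lad1).

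The highest rises belonged to a chemokine, a haem-degrading enzyme, a lipid receptor and arginase. Ppbp (Entrez 57349), the precursor of the neutrophil-attracting chemokine CXCL7, lay at 9.30 and 9.28 alone and at 11.44 and 11.45 with lysate, a rise of 2.15 ± 0.065 (SE; 4.45-fold, adjusted p = 3.96e-10). Hmox1 (Entrez 15368), haem oxygenase 1, lay at 12.36 and 12.41 alone and at 14.27 and 14.21 with lysate (1.86 ± 0.0717, 3.62-fold, adjusted p = 5.03e-09). Cd36 (Entrez 12491), a scavenger receptor for oxidised lipid and dead cells, lay at 12.31 and 12.09 alone and at a mean of 14.05 ± 0.0673 (SD, n = 2) with lysate (1.85 ± 0.0963, 3.6-fold, adjusted p = 9.94e-08). In each of these genes the libraries of a group lay closer to each other than to any library of the other group. Groups without overlap were a condition for the choice of these genes. Arg1 (Entrez 11846), arginase 1, lay at 7.03 and 6.88 alone and at 8.76 and 8.69 with lysate (1.78 ± 0.107, 3.42-fold, adjusted p = 3.96e-07). Ctsl (Entrez 13039), the lysosomal protease cathepsin L, lay at 14.21 and 14.20 alone and at 15.65 and 15.76 with lysate (1.50 ± 0.0665, 2.82-fold, adjusted p = 2.13e-08).

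The others of the 20 highest rises had varied roles. Surface and matrix genes among them were Pdpn (podoplanin, a membrane mucin, 1.46), Emp1 (a small membrane protein, 1.26), Angptl2 (a secreted angiopoietin-like protein, 1.17), Mmp19 (a matrix metalloproteinase, 1.15) and Lgals1 (galectin 1, 1.08). Dio2, which activates thyroid hormone, lay at 5.93 and 5.82 alone and at 7.57 and 7.26 with lysate, a change of 1.54. Por, which passes electrons to cytochrome P450 enzymes and haem oxygenase, rose by 1.09, and Akr1b8, an aldo-keto reductase, by 1.18. Npy (neuropeptide Y, 1.29), Rgl1 and Bcar3 (regulators of small GTPase signalling, 1.26 and 1.22), Nkain1 (1.17), Pf4 (the platelet factor 4 chemokine, 1.15), Dct (an enzyme of pigment cells, 1.13) and Igf2bp2 (an mRNA-binding protein that also reads N6-methyladenosine, 1.08) completed the group. All 20 rose in every alternative fit that tested them.

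Among the deepest falls were genes of presentation, of monocytes and of the stress response. Lad1, which encodes the basement membrane protein ladinin, lay at 8.62 and 8.70 alone and at 7.55 and 7.47 with lysate, a change of -1.15 ± 0.0899 (adjusted p = 3.09e-06). Ciita (Entrez 12265), the transactivator of MHC class II genes, lay at 10.27 and 10.41 alone and at 9.44 and 9.41 with lysate (-0.91 ± 0.0763, adjusted p = 6.13e-06). Clec12a, an inhibitory lectin that senses dead cells, lay at 9.67 and 9.62 alone and at 8.68 and 8.73 with lysate (-0.94 ± 0.0751, adjusted p = 3.92e-06). The groups did not overlap in any of the 3 genes, as the rule that chose them required. Cx3cr1, the fractalkine receptor of monocytes and macrophages, fell by 0.84 from 6.65 and 6.63, and Nr4a1, an orphan nuclear receptor induced by signalling, fell by 0.76 from 10.71 and 10.80. Apoa1 lay at 4.29 and 4.17 alone and at 3.24, the lowest value of the whole table, in both libraries with lysate, so its fitted change of -0.99 is limited by the scale. Rnase6 (an antimicrobial ribonuclease, -0.95), Hp (haptoglobin, which binds haemoglobin, -0.94), Adgre4 (an adhesion receptor of myeloid cells, -0.94), Ly6i (-0.92), Id3 (a repressor of helix-loop-helix factors, -0.79) and Pglyrp1 (a peptidoglycan recognition protein, -0.77) were also among them. Pnkd (-0.88), Sspo (-1.02), Col1a1 (-0.78), Arhgef18 (-0.76), Krba1 (-0.76), Cacna2d2 (-0.75) and the heat shock genes Hspa1a and Hspa1b made up the rest. All 20 fell in every alternative fit that tested them. Apoa1 was too low for the fit that required a group mean of at least 6.

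**Figure D3:**
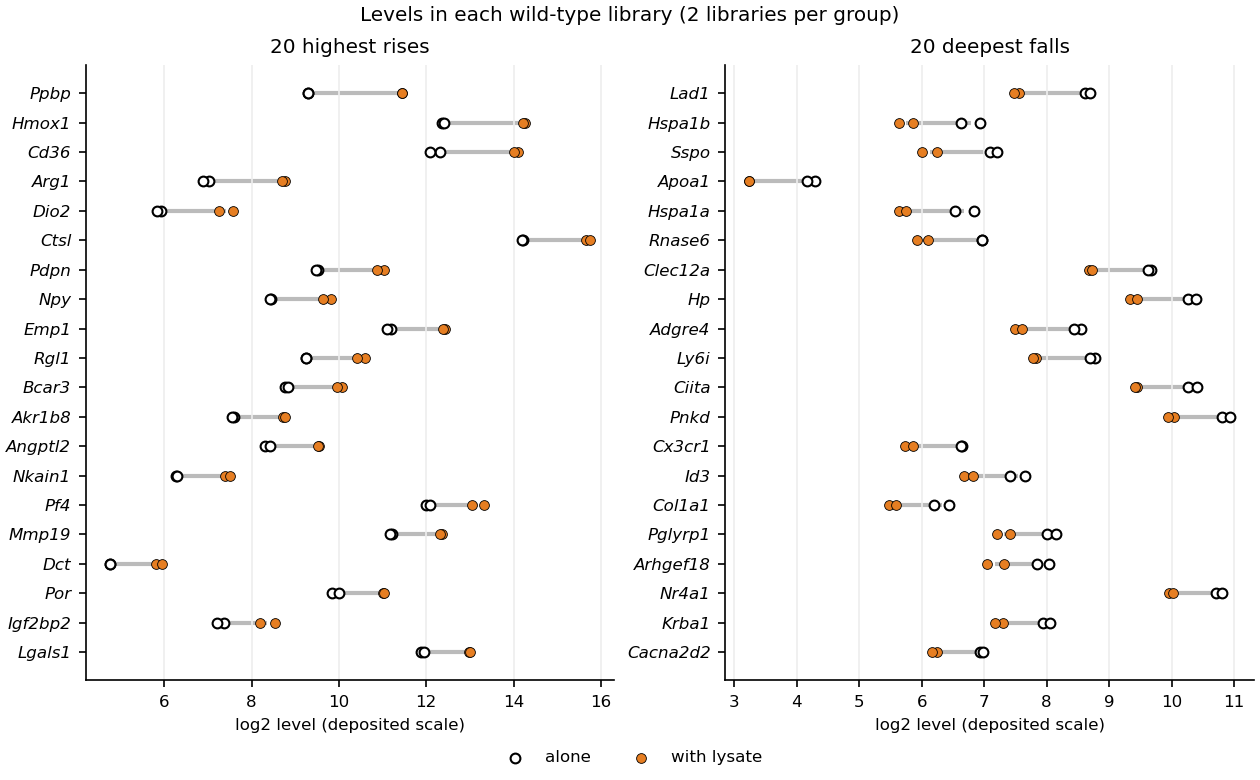
Deposited log2 level (horizontal axis) of the 20 highest rises (left) and 20 deepest falls (right) in each wild-type library, open circles for cells alone and filled circles for cells with lysate. The bar joins the group means. Only genes whose groups do not overlap were chosen, so the circles of one group lie apart from those of the other. Ppbp lies at 9.30 and 9.28 against 11.44 and 11.45.

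Many genes of haem and iron handling rose. Of 28 measured haem and iron genes 13 rose and 1 fell (median change 0.25, against -0.01 over all genes tested), and 10 rose in every alternative fit. Over all genes tested 10.2% rose and 11.3% fell, or 3.57% and 3.17% in every alternative fit. These are the shares to set beside the counts of each list. Beside Hmox1, Slc48a1, which carries haem out of the lysosome, lay at 11.48 and 11.54 alone and at 12.36 and 12.28 with lysate (0.81 ± 0.0703, adjusted p = 8.01e-06). Fth1, the heavy chain of the iron store ferritin, lay at 16.98 and 16.96 alone and at 17.43 and 17.47 with lysate (0.48 ± 0.0705, adjusted p = 0.000541). Steap3, which reduces iron in endosomes, rose by 0.55, Slc11a1, which pumps iron out of the phagosome, by 0.53, and Alas1, the first enzyme of haem synthesis, by 0.38. The single fall was not called without the second library of cells alone or the first with lysate, when 0 genes of the list fell.

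Targets of NRF2, the transcription factor of the oxidative stress response, rose in part. Of 27 measured targets 9 rose and 18 passed in neither direction (median 0.17); 6 rose in every alternative fit, and 15 after removal of the GC and length trend. Prdx1, which breaks down peroxides, lay at 14.27 and 14.18 alone and at 14.91 and 15.06 with lysate (0.76 ± 0.0726, adjusted p = 1.98e-05). Gclm, a subunit of the enzyme that starts glutathione synthesis, rose by 0.55, Txnrd1, thioredoxin reductase, by 0.37, and Srxn1, which restores peroxiredoxins, by 0.30. Esd, a carboxylesterase, rose by 0.69. The transcript of NRF2 itself, Nfe2l2, lay at 11.91 and 11.91 alone and at 11.97 and 11.80 with lysate (-0.02 ± 0.0693, adjusted p = 0.852). The core of the antioxidant response element to which NRF2 is known to bind (TGACNNNGC, either strand) stood in the 250 bases before the start of 7 of the 23 targets with a promoter in the reference, 4 of them among the 8 targets with a promoter that rose, and of 13.9% of the 9426 tested genes with such a window. Windows of 3 targets that rose show it in capitals, from RefSeq in build GRCm38.p6, each read 5′ to 3′ on the strand of its gene. That of Gclm is chr3:122245387-122245466 (plus strand), that of Prdx1 chr4:116685430-116685509 (plus strand) and that of Txnrd1 chr10:82859078-82859157 (plus strand).
Gclm: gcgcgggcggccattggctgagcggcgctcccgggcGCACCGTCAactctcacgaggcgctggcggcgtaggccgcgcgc
Prdx1: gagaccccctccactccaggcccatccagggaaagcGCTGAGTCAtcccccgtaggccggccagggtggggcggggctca
Txnrd1: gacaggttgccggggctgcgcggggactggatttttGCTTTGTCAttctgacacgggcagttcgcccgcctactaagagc

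Some genes rose in each of several working parts of the lysosome. Of 18 subunits of the proton pump that acidifies it (V-ATPase) 8 rose and 10 passed in neither direction (median 0.23), and 5 rose in every alternative fit. Atp6v0d2, a membrane subunit made by macrophages and osteoclasts, lay at 11.80 and 11.62 alone and at 12.80 and 12.64 with lysate (1.01 ± 0.079, adjusted p = 3.09e-06). Subunits of the catalytic part moved less, with rises of 0.53 for Atp6v1c1, 0.46 for Atp6v1h, 0.44 for Atp6v1a and 0.37 for Atp6v1b2. Of 12 measured cathepsins 6 rose and 3 fell, 4 of the rises in every alternative fit; without the second library of cells alone 1 fell, and without the second with lysate 0. After Ctsl came Ctsd, an aspartic protease, which lay at 15.74 and 15.86 alone and at 16.26 and 16.41 with lysate (0.54 ± 0.0763, adjusted p = 0.000386), then Ctsk (0.45) and Ctsb (0.44). Of 42 other lysosomal hydrolases and membrane proteins 12 rose and 3 fell (median 0.10), and 10 rose in every alternative fit; 1 fell without the second library of cells alone or the first with lysate. Cd68, a glycoprotein of macrophage lysosomes, lay at 12.40 and 12.49 alone and at 13.37 and 13.07 with lysate (0.77). Lgmn, the asparagine-specific protease legumain, rose by 0.60, Lipa, which splits cholesteryl esters, by 0.59, Npc1, which exports cholesterol from the lysosome, by 0.52, and Tpp1, a peptidase, by 0.51. Acp5, the tartrate-resistant phosphatase of osteoclasts, rose by 0.68 from 10.56 and 10.64 to 11.22 and 11.35. Rises were not shared by all genes of bone-resorbing cells, since Dcstamp, which drives cell fusion, fell by 0.63 and Mmp9 by 0.53.

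TFEB, the factor that controls many lysosomal genes, is known to bind an element with the palindrome TCACGTGA. That palindrome stood in the 250 bases before the start of 2 of 9 cathepsins, 1 of 12 pump subunits and 2 of 33 other lysosomal genes with a promoter in the reference, and of 1.82% of all tested genes. Tfeb itself lay at 9.07 and 9.40 alone and at 9.03 and 9.13 with lysate (-0.15 ± 0.122, adjusted p = 0.404). The 4 genes of these lists that held it and rose are shown with the palindrome in capitals. Besides Ctsd and Atp6v1a these were Gla (alpha-galactosidase, 0.40), which held it in 2 places, and Ctsa (a carboxypeptidase, 0.25); both were chosen after their values were seen. The call of Ctsa was made in 16 of 19 alternative fits, that of the other 3 genes in all. The windows, from the same build and read as above, are chr7:142387883-142387962 (minus strand) for Ctsd, chr2:164833693-164833772 (plus strand) for Ctsa, chr16:44139348-44139427 (minus strand) for Atp6v1a and chrX:134601176-134601255 (minus strand) for Gla.
Ctsd: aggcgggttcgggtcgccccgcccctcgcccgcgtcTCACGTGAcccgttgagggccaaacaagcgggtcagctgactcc
Ctsa: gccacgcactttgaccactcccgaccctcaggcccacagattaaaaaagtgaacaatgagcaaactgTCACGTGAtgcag
Atp6v1a: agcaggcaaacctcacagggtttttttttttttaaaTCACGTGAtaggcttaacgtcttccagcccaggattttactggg
Gla: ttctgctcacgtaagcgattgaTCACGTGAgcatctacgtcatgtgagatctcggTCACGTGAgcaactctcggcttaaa

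Rises outnumbered falls among genes that take up and break down lipid, and falls outnumbered rises among genes that make sterols. Of 26 measured genes of lipid uptake, storage and breakdown 13 rose and 4 fell (median 0.22), and 10 rose and 1 fell in every alternative fit. Mgll, which splits monoglycerides, lay at 10.45 and 10.48 alone and at 11.47 and 11.55 with lysate (1.05 ± 0.065, adjusted p = 4.65e-07). Fabp4, a fatty acid carrier, rose by 0.94 from 10.20 and 10.21, and Lpl, lipoprotein lipase, by 0.88 from 15.26 and 15.11. Msr1, scavenger receptor A, lay at 12.19 and 12.06 alone and at 13.03 and 12.91 with lysate (0.85). The 4 falls were 2 without the second library of cells alone or either KO-labelled library with lysate, and 1 without the first wt library with lysate. Of 23 sterol synthesis enzymes and targets of their regulator SREBP2 9 fell and 1 rose (median -0.24), and 5 fell in every alternative fit. Cyp51, which removes a methyl group from lanosterol, lay at 9.36 and 9.31 alone and at 8.86 and 8.73 with lysate (-0.54 ± 0.0888, adjusted p = 0.00105). Stard4, a sterol carrier, fell by 0.47, Fdft1 by 0.43 and Insig1, which holds SREBP in the endoplasmic reticulum, by 0.39. The single rise was lost without any 1 wt library or either KO-labelled library with lysate, when 0 rose. Of 16 LXR targets and efflux genes 1 rose and 3 fell, and none was called in every alternative fit; Abca1, the main cholesterol exporter, changed by 0.04 ± 0.103 (adjusted p = 0.839; named after its value was seen).

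Receptors for dead cells were mixed. Of 28 measured scavenger and dead-cell uptake receptors 8 rose and 2 fell (median 0.03), 5 of the rises in every alternative fit. Without either wt library alone, the first with lysate or either KO-labelled library with lysate, 5 rose; the 2 falls were 1 without either KO-labelled library with lysate and 0 without the second wt library alone or either wt library with lysate. Besides Cd36 and Msr1, Itgav, the integrin chain that binds dead cells through bridging proteins, rose by 0.66 from 9.38 and 9.19 to 10.02 and 9.87. Havcr2 (TIM-3) rose by 0.47 and Gas6, a bridge between dead cells and TAM receptors, by 0.37. Of 22 measured C-type lectins 5 rose (22.7%) and 4 fell (18.2%), against 10.2% and 11.3% of all genes tested (median -0.01). In every alternative fit 2 of these lectins rose and 1 fell. Among them Mrc1, the mannose receptor, lay at 10.95 and 10.82 alone and at 11.77 and 11.73 with lysate (0.86 ± 0.0784, adjusted p = 1.14e-05), and Mgl2 rose by 0.36, while Clec12a fell as given above. Of 8 measured Fc receptors 2 rose and 2 fell (25% each, median -0.04), and 1 rose and 0 fell in every alternative fit. Fcgr1, the high-affinity receptor for IgG, rose by 0.58 from 11.67 and 11.71 to 12.25 and 12.28.

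Arginine and polyamine genes followed Arg1 in part. Of 17 measured genes of arginine, polyamine and itaconate metabolism 6 rose and 1 fell (median 0.22), and 4 rose in every alternative fit. Srm, spermidine synthase, lay at 6.94 and 7.05 alone and at 7.67 and 7.80 with lysate (0.74 ± 0.109, adjusted p = 0.000539), Paox rose by 0.49 and Slc7a2, an arginine importer, by 0.47. The single fall was lost, leaving 0, without the second library of cells alone, the first with lysate or either KO-labelled library with lysate. Nos2, which competes for arginine in inflammatory cells, lay at 3.94 and 3.88 alone and at 4.05 and 4.21 with lysate (0.22 ± 0.106, adjusted p = 0.159; named after its value was seen).

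Chemokines moved in both directions. Of 19 measured chemokines 10 rose and 6 fell, and 9 rose and 3 fell in every alternative fit; without the second library of cells alone 3 fell. The 5 measured CXC genes that neighbour each other in the RefSeq annotation of GRCm38.p6 all rose, Ppbp by 2.15, Pf4 by 1.15, Cxcl3 by 0.99, Cxcl1 by 0.57 and Cxcl2 by 0.19. Cxcl3 lay at 9.48 and 9.52 alone and at 10.49 and 10.48 with lysate, and Cxcl1 at 7.84 and 7.76 alone and at 8.36 and 8.38 with lysate. The rise of Cxcl2 was called in 7 of 19 alternative fits. Ccl2, a monocyte attractant, lay at 7.66 and 7.78 alone and at 8.65 in both libraries with lysate (0.93 ± 0.0977, adjusted p = 4.35e-05). Ccl5, which attracts T cells, lay at 13.91 and 13.98 alone and at 13.26 and 13.46 with lysate (-0.59 ± 0.0787, adjusted p = 0.000274), and Cx3cl1, fractalkine, fell by 0.61. Among 15 measured chemoattractant receptors 4 rose and 5 fell. The complement receptors C3ar1 and C5ar1 rose by 0.59 and 0.48 and Ccr1 by 0.38, while Cx3cr1, Cxcr3 (-0.49) and Ccrl2 (-0.45) fell.

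Some secreted matrix proteases and growth factors rose. Of 25 measured matrix proteases, inhibitors and matrix proteins 9 rose (36%) and 4 fell (16%), against 10.2% and 11.3% of all genes tested. In every alternative fit 6 rose and 3 fell. Among metalloproteinases that neighbour each other in the same annotation Mmp13, a collagenase, lay at 10.97 and 10.82 alone and at 11.95 and 11.87 with lysate (1.01 ± 0.0765, adjusted p = 2.61e-06). Mmp12, the macrophage elastase, rose by 0.81 from 14.78 and 14.65, and Mmp8, the neutrophil collagenase, by 0.42. Their neighbour Mmp27 changed by 0.23 (adjusted p = 0.0978). Plau, urokinase, lay at 9.50 in both libraries of cells alone and at 10.26 and 10.36 with lysate (0.81), and Spp1, osteopontin, rose by 0.71. Of 15 measured growth and vessel factors 6 rose and 9 passed in neither direction, 4 of the rises in every alternative fit. Nrp1, a receptor for semaphorins and VEGF, rose by 0.83 from 11.15 and 11.02 to 11.94 and 11.89, Pdgfa by 0.75, Gdf15 by 0.58 and Hbegf by 0.48. Of 17 galectins and annexins 9 rose and 8 passed in neither direction (median 0.26), with Lgals3 up by 0.71 and Anxa1, which limits inflammation, by 0.65; without the first library with lysate 5 rose.

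Most measured MHC class II genes fell in the libraries with lysate. Of 15 measured class II genes and regulators 9 fell and 6 passed in neither direction (median -0.36), and 8 fell in every alternative fit. H2-Eb1 lay at 14.87 and 15.00 alone and at 14.29 and 14.37 with lysate (-0.60 ± 0.0718, adjusted p = 0.00012). H2-Ab1 lay at 14.52 and 14.66 alone and at 14.02 and 14.07 with lysate (-0.54), and H2-Aa at 15.36 and 15.38 alone and at 14.97 and 15.07 with lysate (-0.36). These encode the chains that bind peptide. Genes of the peptide editor fell too, H2-DMa by 0.48, H2-DMb1 by 0.56 and H2-DMb2 by 0.59, and so did the invariant chain Cd74, by 0.43. Among the regulators Ciita fell, while Rfx5 (-0.21), Rfxank (-0.05) and Rfxap (-0.05), subunits of the factor that binds class II promoters, and Marchf1 (0.05), which sends class II molecules to degradation, passed in neither direction; these 4 were named after their values were seen.

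The CCAAT box, one of the elements for which class II promoters are known, was read as ATTGG on either strand. It stood in the 250 bases before the start of all 11 class II genes and regulators with a promoter in the reference, and of 40.7% of all tested genes. The cAMP response element TGACGTCA stood in 1 of the 11, H2-Aa, and in 3.06% of all tested genes. The shown windows hold ATTGG in capitals (CCAAT where it lies on the other strand), from build GRCm38.p6 as above, chr17:34305770-34305849 (plus strand) for H2-Eb1, chr17:34287830-34287909 (minus strand) for H2-Aa and chr17:34125282-34125361 (plus strand) for H2-DMa. In H2-Eb1 and H2-Aa the box lies close to the start, from base 55 and base 44 before it, and in H2-DMa farther away, from base 194.
H2-Eb1: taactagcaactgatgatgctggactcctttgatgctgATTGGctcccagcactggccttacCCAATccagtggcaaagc
H2-Aa: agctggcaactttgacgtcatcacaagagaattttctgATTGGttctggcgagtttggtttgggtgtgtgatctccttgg
H2-DMa: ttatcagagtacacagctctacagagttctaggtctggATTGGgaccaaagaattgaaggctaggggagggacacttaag

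Class I presentation and maturation genes fell less firmly. Of 25 measured class I and cross-presentation genes 12 fell and 13 passed in neither direction (median -0.24), but 3 fell in every alternative fit, 4 without the second library of cells alone and 3 without the first with lysate. Cybb, the NADPH oxidase subunit that keeps the phagosome from turning too acid, lay at 13.89 and 13.76 alone and at 13.34 and 13.33 with lysate (-0.49 ± 0.0649, adjusted p = 0.000262). H2-K1, a class I heavy chain, fell by 0.43. Of 20 dendritic cell maturation and migration genes 8 fell and 12 passed in neither direction, 4 in every alternative fit, 4 without the second library of cells alone and 5 without the first with lysate. Fscn1, which bundles actin in migrating dendritic cells, lay at 14.14 and 14.35 alone and at 13.68 and 13.74 with lysate (-0.54 ± 0.0872, adjusted p = 0.001), Marcksl1 fell by 0.50 and Cacnb3 by 0.47. Ccr7, the lymph node homing receptor, lay at 14.48 and 14.61 alone and at 14.22 and 14.40 with lysate, where the groups did not overlap but the test was not passed (-0.23 ± 0.0792, adjusted p = 0.0522; named after its value was seen). Of 19 measured genes of T cell co-stimulation and co-inhibition 5 rose and 5 fell, among them the ligands Icosl (-0.62) and Cd276 (0.59) and the receptor Havcr2 (0.47). In that list 3 rose without either KO-labelled library with lysate, 3 rose and 2 fell without either wt library alone, and 2 rose and 1 fell without the first wt library with lysate.

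Some cytokine transcripts fell. Of 16 measured cytokines that instruct T cells or inflammation 4 fell and 12 passed in neither direction, 3 of the falls in every alternative fit. Il12b, the p40 chain of interleukins 12 and 23, lay at 10.74 and 10.60 alone and at 10.19 and 10.13 with lysate (-0.51 ± 0.0789, adjusted p = 0.000771), Osm fell by 0.42 and Csf1 by 0.36. Tnf lay at 7.34 and 7.42 alone and at 7.70 and 7.56 with lysate (0.24 ± 0.0873, adjusted p = 0.0626). The IL-1 family moved in both directions: of 15 measured family and inflammasome genes 5 rose and 3 fell, but 3 rose without either KO-labelled library with lysate and 1 rose without the second wt library alone or the first with lysate. Il1rn, the receptor antagonist, lay at 11.96 and 11.79 alone and at 12.91 and 12.84 with lysate (1.00 ± 0.0739, adjusted p = 2.35e-06). Il1b lay at 11.30 and 11.21 alone and at 10.82 in both libraries with lysate (-0.44 ± 0.0681, adjusted p = 0.000767), and Nlrp3, the inflammasome sensor, fell by 0.34. The agonist Il1a rose by 0.43 (adjusted p = 0.01), a call lost without the second library of cells alone (adjusted p = 0.116) or the first with lysate (adjusted p = 0.118). Of 18 NF-kB subunits and feedback regulators 7 fell and 11 passed in neither direction, but none fell in every alternative fit; 2 fell without the first library with lysate and 3 without the second library of either wt group.

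Toll-like receptors and their partners moved in both directions, with 36.4% up and 13.6% down. Called interferon genes mostly rose, with 35.6% up and 4.44% down, against 10.2% and 11.3% of all genes tested. Of 22 Toll-like receptors and partners 8 rose and 3 fell, but 3 rose without the second library of cells alone or the first with lysate. Cd180 rose by 0.64 from 10.44 and 10.42, Tlr1 by 0.57 and Tlr13, which senses bacterial ribosomal RNA, by 0.42. Tlr2 lay at 11.40 and 11.38 alone and at 10.86 and 10.85 with lysate (-0.53 ± 0.0632, adjusted p = 0.000113), and Cd14, its partner, fell by 0.54. Of 45 interferon response genes 16 rose and 2 fell (median 0.14), and 8 rose in every alternative fit; without the second library of cells alone 10 rose, without the first with lysate 9. Rsad2, viperin, lay at 12.81 and 12.68 alone and at 13.56 and 13.55 with lysate (0.81 ± 0.0705, adjusted p = 8.29e-06). Cmpk2 rose by 0.67, Ifit2 by 0.61, Ifit3 by 0.60 and Isg15 by 0.46. The 2 falls were 1 without the first library of cells alone and 0 without the second, the first with lysate or either KO-labelled library with lysate.

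Many chaperones of the endoplasmic reticulum rose. Of 23 chaperones and unfolded protein response genes 13 rose and 1 fell (median 0.30), and 10 rose in every alternative fit. Pdia4, a disulfide isomerase, lay at 11.01 and 10.90 alone and at 11.79 and 11.73 with lysate (0.81 ± 0.0659, adjusted p = 4.86e-06). Calr, calreticulin, rose by 0.53 and Hspa5 (BiP), the main chaperone of the compartment, by 0.49 from 13.61 and 13.54 to 13.99 and 14.16. The single fall was lost (0) without the second library of cells alone and 2 fell without either KO-labelled library of cells alone. Of 21 measured ATF4 targets 6 fell and 1 rose, with Slc1a5, a glutamine importer, down by 0.48 and Sesn2 by 0.38; 2 fell without the second library of cells alone or the first with lysate, and the rise was lost (0) without any 1 wt library. Of 22 hypoxia and glucose transport genes 8 rose and 1 fell. P4ha1, a collagen hydroxylase, rose by 0.68 from 9.54 in both libraries of cells alone to 10.25 and 10.20, and Egln3 by 0.56; without the second library of cells alone 4 rose, and without the first with lysate 3. Of 20 glycolytic enzymes 8 rose and 2 fell; 5 rose without either KO-labelled library with lysate and 4 without either wt library alone or the first with lysate, and the falls were 1 without any 1 wt library and 4 without either KO-labelled library alone. Pgam1 rose by 0.54, Hk3 by 0.50 and Ldha by 0.47 in every alternative fit, while the glucose carrier Slc2a6 fell by 0.65.

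Both copies of the inducible HSP70 gene fell. Hspa1a lay at 6.83 and 6.53 alone and at 5.63 and 5.75 with lysate (-0.99 ± 0.114, adjusted p = 9.07e-05), and Hspa1b at 6.94 and 6.63 alone and at 5.64 and 5.86 with lysate (-1.04 ± 0.131, adjusted p = 0.000191). The copies are near-identical, and reads may have been shared between them. Of the 22 measured chaperones of cytosol and mitochondria 4 rose and these 2 fell; 7 rose without either KO-labelled library of cells alone and 8 without the first wt library of cells alone. Bag3, a partner of HSP70, rose by 0.42, Hsp90aa1, the inducible cytosolic HSP90, by 0.34 (adjusted p = 0.00469; 0.059 without the second library of cells alone), and Hspd1 and Hspa9, chaperones of the mitochondrion, by 0.36 and 0.35. The heat shock element was read as GAANNTTC, which stood before the start of 5 of 16 chaperones with a promoter in the reference and of 6.05% of all tested genes. The shown windows of both copies, chr17:34972217-34972296 for Hspa1a and chr17:34959299-34959378 for Hspa1b (minus strand, build GRCm38.p6), are identical, with the element in capitals.
Hspa1a: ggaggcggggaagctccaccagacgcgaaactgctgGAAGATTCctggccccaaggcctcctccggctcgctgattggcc
Hspa1b: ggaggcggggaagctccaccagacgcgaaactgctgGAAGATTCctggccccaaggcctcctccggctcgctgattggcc

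Some regulators of transcription, survival and growth changed. Of 33 dendritic cell and macrophage transcription factors 6 rose (18.2%) and 7 fell (21.2%), with a median of -0.08. In every alternative fit 2 of these factors rose and 3 fell. Bhlhe41, a factor of tissue macrophages, lay at 7.59 and 7.70 alone and at 8.51 and 8.10 with lysate (0.66 ± 0.118, adjusted p = 0.00184), and Pparg, which drives lipid genes, rose by 0.54. Irf4, a factor of dendritic cells, lay at 9.79 and 9.75 alone and at 9.34 and 9.24 with lysate (-0.48 ± 0.0731, adjusted p = 0.000654), and Stat3 fell by 0.41. Zbtb46, the factor most often used to mark conventional dendritic cells, fell by 0.27 (adjusted p = 0.027), a call lost without the second library of cells alone (adjusted p = 0.226), the first with lysate (adjusted p = 0.167) or either KO-labelled library with lysate (adjusted p = 0.0511 and 0.0509). Of 14 measured BCL2 family genes 4 rose and 3 fell. The survival genes Bcl2 (0.66) and Bcl2l1 (0.54) rose, and the death-promoting Bbc3 (-0.67), Bmf (-0.51) and Bcl2l11 (-0.33) fell, while Bid, which also promotes death, rose by 0.27 (adjusted p = 0.0304, and 0.0841 to 0.142 without any 1 wt library). In this list 2 rose without the second wt library alone or either wt library with lysate, 6 fell without the second wt library with lysate, and 5 fell without either KO-labelled library alone. Of 24 measured immediate early genes 5 rose (20.8%) and 6 fell (25%), 1 and 4 in every alternative fit. Jun rose by 0.54, while the early genes Btg2 and Nr4a3 each fell by 0.52. Of 44 measured cell cycle and replication genes 5 rose (11.4%) and 6 fell (13.6%), shares near those of all genes tested (10.2% and 11.3%). Ccnd1, cyclin D1, lay at 8.03 and 7.82 alone and at 8.98 and 8.84 with lysate (0.98 ± 0.0909, adjusted p = 1.38e-05), and Pcna rose by 0.86. Without the second library of cells alone 3 rose and 2 fell, and 3 rose and 3 fell without either wt library with lysate; without the first library of cells alone 3 fell.

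Translation factors and subunits of respiration differed in how many were called. Of the 79 subunits of oxidative phosphorylation 2.53% rose and 2.53% fell, below the 10.2% and 11.3% of all genes tested. Of 64 initiation and elongation factors 15 rose (23.4%, against 10.2% of all genes tested) and 6 fell (9.38%, against 11.3%), but 4 rose in every alternative fit, among them Eif4e, the cap-binding factor, which lay at 9.01 and 8.85 alone and at 9.67 and 9.60 with lysate (0.70 ± 0.0817, adjusted p = 9.5e-05). With 1 library left out the rises numbered 4 (second alone), 6 (first with lysate), 8 (second with lysate) or 9 (either KO-labelled with lysate), and the falls 0, 1, 3 and 1 in that order and 1 without the first alone. Of 78 cytosolic ribosomal proteins 9 fell (11.5%, near the 11.3% of all genes tested) and 69 passed in neither direction (median -0.15), with Rps14 at -0.51. That count was 0 without the second library of cells alone or the first with lysate, 38 without the second with lysate, 25 without either KO-labelled library of cells alone and 4 without either KO-labelled library with lysate, so it rested on single libraries. Of 79 subunits of oxidative phosphorylation 2 rose and 2 fell, and 16 fell without the second library with lysate; 1 fell without the second library alone, the first with lysate or either KO-labelled library with lysate, and 1 rose without the second library alone. Of 212 solute carriers 28 rose (13.2%) and 23 fell (10.8%), shares near those of all genes tested, 12 and 7 in every alternative fit, with the sugar-phosphate carrier Slc37a2 up by 0.83, the creatine carrier Slc6a8 by 0.81 and the amino acid carrier Slc7a8 by 0.80; without the second library of cells alone 14 rose and 8 fell, and without the first with lysate 8 fell and 17 rose.

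**Figure D4:**
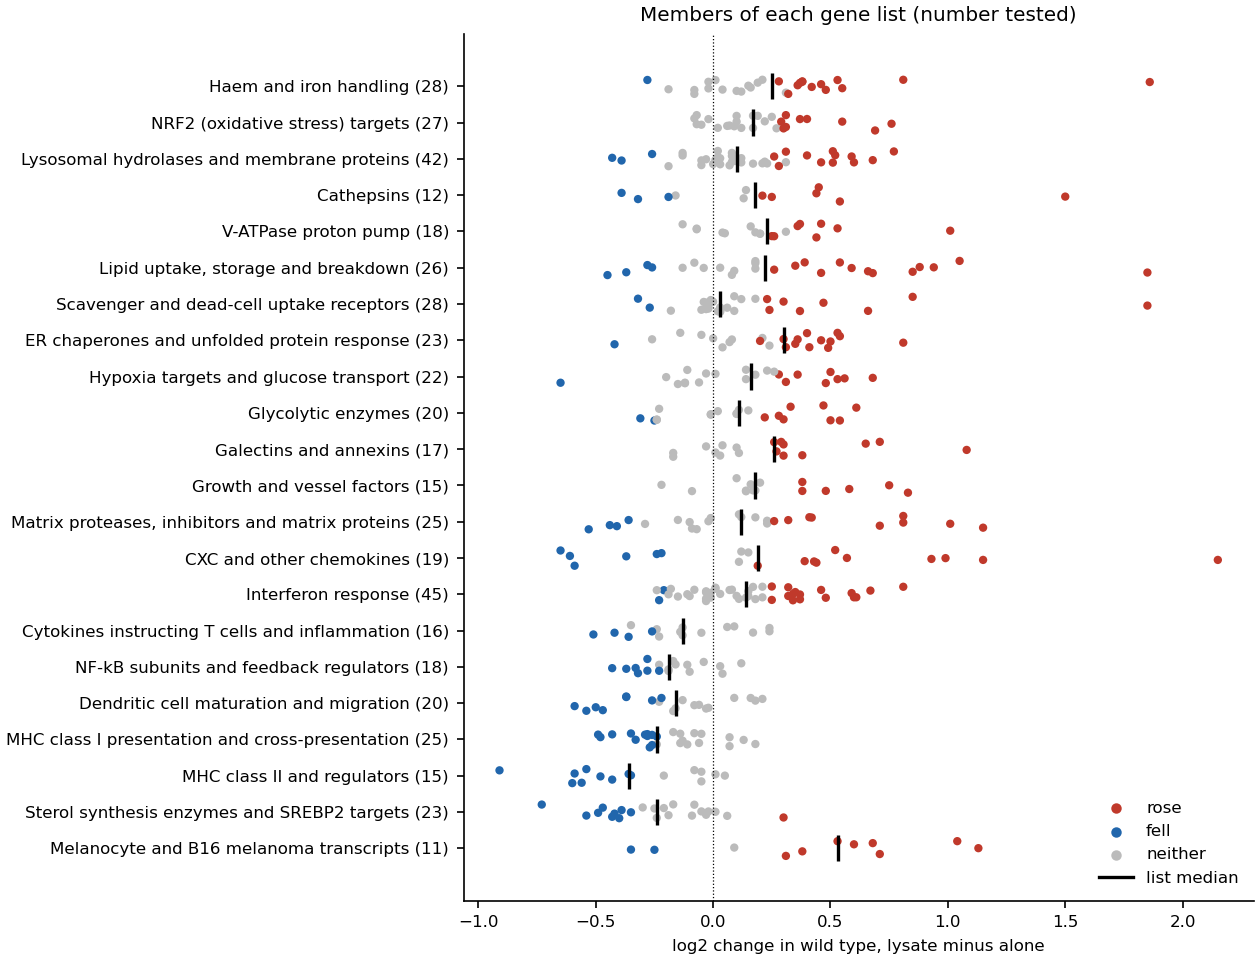
Log2 change in wild type (horizontal axis, lysate minus alone) of each tested member of 22 gene lists, 1 point per gene, red for genes that rose, blue for genes that fell and grey for the rest, with a black bar at each list's median. The MHC class II median lies at -0.36 and that of the endoplasmic reticulum chaperones at 0.30, against -0.01 for all genes tested.

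Transcripts of pigment cells were higher with lysate. Dct, Tyrp1, Pmel and Slc45a2, the 4 measured of 10 melanocyte markers, all rose. In a longer list of transcripts found in melanocytes and B16, some of which myeloid cells also make, 8 of 11 measured rose and 2 fell (Kit, a growth factor receptor, by 0.35 and Rab27a, of secretory vesicles, by 0.25); 1 fell without any 1 wt library. Tyrp1, a melanin synthesis enzyme, lay at 4.75 in both libraries of cells alone and at 5.86 and 5.71 with lysate (1.04 ± 0.0916, adjusted p = 9.04e-06). Pmel, which builds the fibrils of the melanosome, lay at 5.50 and 5.48 alone and at 6.06 and 6.35 with lysate (0.71 ± 0.103, adjusted p = 0.000488), and Slc45a2, a melanosome transporter, at 3.63 alone and 4.16 with lysate in both libraries each. The log2 of the summed level of these 4 markers was 6.80 and 6.79 alone and 7.63 and 7.74 with lysate. B16 is a pigment cell tumour, and the share of the other rises that came from its RNA was not tested.

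Many calls of the wild-type response were also made in KO-labelled cells. The label could not be checked from the transcript, since Ythdf1 lay at 9.58, 9.43, 9.72 and 9.58 in the wt libraries (alone, then lysate) and at 9.53, 9.43, 9.51 and 9.46 in the KO-labelled ones; a deletion that leaves the transcript in place would not show there. In KO-labelled cells 976 genes rose (8.28% of those tested) and 816 fell (6.92%), and 643 rises and 489 falls were called in both, with 5 genes called in opposite directions. All 20 of the highest wt rises were called there too, by 0.66 to 1.79, among them Ppbp (1.79), Hmox1 (1.68) and Arg1 (1.48), and none differed by the test of the difference. Of the 20 deepest falls 11 were called there and 5 differed by that test. MHC class II genes fell alike in number, 9 of 15, with H2-Eb1 at -0.61 and Ciita at -0.48, while in the interferon list 34 of 45 rose and 1 fell, with Rsad2 at 0.95, against 16 and 2 in wild type; the test of the difference called 1 member of that list.

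The test of the difference found 13 genes (0.11% of those tested). In all 13 both KO-labelled libraries of cells alone lay below both wt libraries of cells alone. In 10 of them wild type fell and KO-labelled cells passed the test in neither direction. Hp lay at 10.27 and 10.39 alone and at 9.33 and 9.45 with lysate in wild type, and at 8.92 and 8.84 alone and 8.66 and 8.74 with lysate in KO-labelled cells (difference of the changes 0.76 ± 0.112, adjusted p = 0.026). Hspa1b had a difference of 1.13, Hspa1a of 1.05, Apoa1 of 0.99, Ly6i of 0.80, Ly6c1 of 0.73, Ly6c2 of 0.68, Trem1 of 0.67, C3 of 0.67 and Cfb of 0.61. Markers of several myeloid cells moved with the genotype labels as well. For neutrophils the log2 of the summed level was 14.15 and 14.16 in KO-labelled cells alone, against 15.12 and 15.03 in wt cells alone. Macrophage and monocyte markers summed to 17.70 and 17.65 against 18.05 and 18.07, and eosinophil markers to 8.78 and 8.84 against 9.66 and 9.68. The part of these cells in the differences was not tested. For Irf7, Slfn4 and Siglec1, which respond to interferon, KO-labelled cells rose, by 0.45, 0.54 and 0.59, while wt cells changed by -0.23, -0.11 and -0.12. Irf7 lay at 12.03 and 12.17 alone and 11.83 and 11.91 with lysate in wild type, and at 11.41 and 11.33 alone and 11.81 and 11.85 with lysate in KO-labelled cells (0.68 ± 0.1, adjusted p = 0.026). These calls depended on single libraries: 0 were left without the first wt library with lysate or either KO-labelled library with lysate, 2 without the first wt library alone or the second with lysate, 4 without the second wt library alone, and 32 were made without the first KO-labelled library alone.

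**Figure D5:**
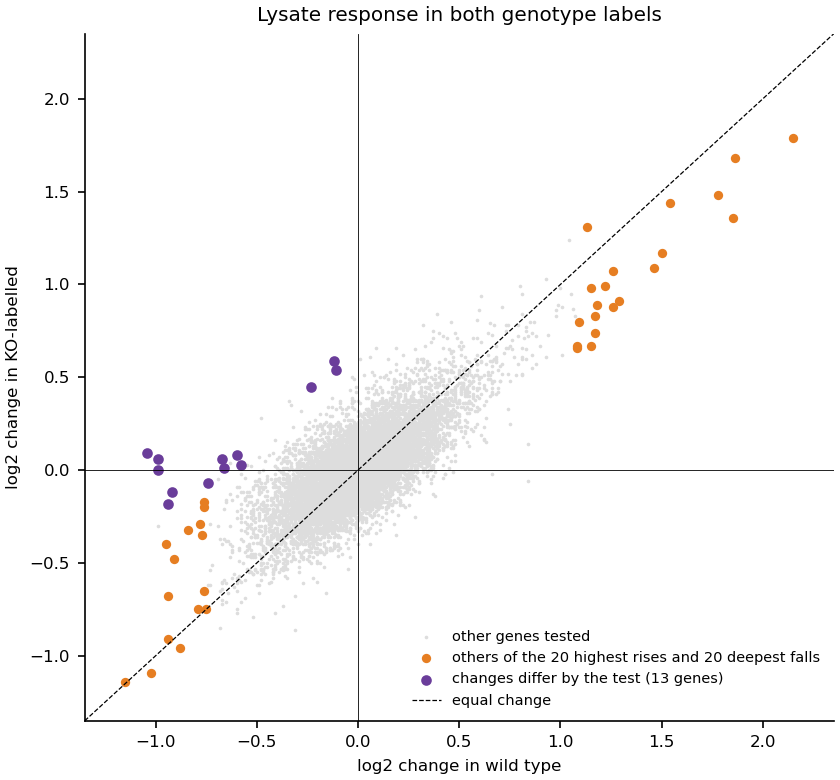
Log2 change with lysate in KO-labelled cells (vertical axis) against that in wild-type cells (horizontal axis), 1 point per gene tested, with the 13 genes whose changes differ by the test in purple and the others of the 20 highest wild-type rises and 20 deepest falls in orange; the dashed line marks equal change. The purple points lie left of the line, with Hspa1b at -1.04 in wild type and 0.09 in KO-labelled cells.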

How the data were processed

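RNA-seq (stranded mRNA libraries, per the labels) was deposited by the authors as log2 values per gene, on 1 scale for all 8 libraries with values (11786 Entrez genes, 11744 with a symbol in the RefSeq tables). The submitters' processing notes name STAR, DESeq2, deepTools and build mm9 without roles; reading the values as regularized logarithms from DESeq2 rests on the table's name and was not stated for it, and the sources used here do not give the counting tool. Such values draw low genes towards a common level and hold no counts, so depth is unknown and fold changes of low genes are understated. The 4 other samples of the series (RNA immunoprecipitation and its input) were not used here.

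All 8 libraries were fitted in 1 linear model of 4 groups with limma 3.58.1 (R 4.3.3; lmFit and eBayes with a mean-variance trend, 4 residual and 9.33 prior degrees of freedom), after leaving out 1 gene with no group mean of at least 4. Tests were two-sided, p-values were adjusted by Benjamini and Hochberg over the 11785 genes tested, and a call means an adjusted p under 0.05. The fit was run on simulated data with noise drawn independently for each gene and library. Such data lack the GC trend between the replicates, so the run cannot tell how that trend affects the calls. Figures were drawn with matplotlib 3.10.9 (Python 3.11.15).

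The members and the 50 gene lists and 11 marker lists were chosen with earlier results of these data known. Genes were named by rule: the 20 highest rises and 20 deepest falls with non-overlapping libraries, predicted genes left out, up to 6 members of each list by smallest p, every gene called for the difference of the effects, and Ythdf1. Outside the rule, and after their values were seen, Abca1, Ccr7, Ctsa, Cxcl1, Cxcl2, Gla, H2-Aa, Itgax, Ly6a, Ly6e, Marchf1, Mmp27, Nfe2l2, Nos2, Rfx5, Rfxank, Rfxap and Tfeb were named. GC content and length were those of reference transcripts (97.5% of the genes tested); their trend was removed by loess (span 0.3). Promoters were matched by Entrez ID to RefSeq in build GRCm38.p6, which is not the submitters' build, so no value was read by coordinate; motifs were searched on both strands in the 250 bases before the start, whether or not they overlapped another motif. The alternatives were no filter or a group mean of at least 6, median centring, quantile normalization, other spread models, wild-type libraries alone, the GC and length correction, the replicate number as a block, each library left out, and thresholds of 0.01 and 0.1; a crossed block was added after seeing the data.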

Additional observations from a re-analysis of the deposited data

Results flagged for a closer look

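The lysate effect differed between wild-type and KO-labelled cells, by limma's test of the difference itself, for 13 genes. The change in KO-labelled cells minus that in wild type was 1.13 for Hspa1b, 1.05 for Hspa1a, 0.99 for Apoa1, 0.80 for Ly6i, 0.76 for Hp, 0.73 for Ly6c1, 0.71 for Siglec1, 0.68 for Ly6c2, 0.68 for Irf7, 0.67 for C3, 0.67 for Trem1, 0.64 for Slfn4 and 0.61 for Cfb. Apoa1 stood at the lowest value of the table, 3.24, in all 4 KO-labelled libraries.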

How the results depend on the processing

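Against 2534 genes called in wild type (1205 rose, 1329 fell), a threshold of 0.01 called 1142 (587 rose, 555 fell). With each library left out in turn the total ran from 1031 to 3152, the rises from 546 to 1518 and the falls from 485 to 1636. In KO-labelled cells 1792 genes were called, 2910 after removal of the GC and length trend, 759 at 0.01 and 564 to 2275 with each library left out. The 13 differences between genotype labels became 65 after removal of that trend, 1 without the mean-variance trend, 8 with a group mean of at least 6, 1 at a threshold of 0.01, 21 at 0.1 and 0 to 32 with each library left out; at an unadjusted p under 0.05 limma gave 980 in the full fit. The cause of these shifts was not tested.

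Whether the replicate numbers pair the samples was not settled. Across genes, replicate 1 minus replicate 2 had a correlation of 0.26 between wt alone and wt with lysate. It was -0.61 between wt alone and KO-labelled alone. These differences followed GC content in wt cells (rank correlation -0.70 alone and -0.25 with lysate), so they cannot decide on pairing. With the replicate number as a block 1994 genes were called in wild type (972 rose, 1022 fell), 1407 in KO-labelled cells and 1 for the difference, or 48 with the trend also removed. A crossed block, chosen after seeing the data, gave 32 differences.

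No called gene among those named changed its sign. Falls outnumbered rises in the fit as designed, but rises outnumbered falls with median centring (1309 and 1200), with the GC and length trend removed (1641 and 1600; 1521 and 1460 with the block), at the threshold of 0.01, without the second wt library alone (546 and 485) and without the first wt library with lysate (555 and 549). Of the alternative values of named genes 6146 stayed on their side of the threshold, 309 lost it and 80 gained it, and of the list counts 1911 stayed within 1.5 times and 369 did not. With 2 libraries per group and no counts, small changes and low genes could not be resolved.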

Other observations

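Neighbours in the Ly6 gene family fell together in wild type: Ly6e by 0.37, Ly6i by 0.92, Ly6a by 0.41, Ly6c1 by 0.67 and Ly6c2, a marker of inflammatory monocytes, by 0.60. Ly6c2 lay at 11.33 and 11.41 alone and at 10.84 and 10.71 with lysate. C3, the central complement protein, lay at 12.53 and 12.61 alone and at 11.90 and 11.76 with lysate, a fall of 0.74, and Cfb, complement factor B, fell by 0.58. Of 15 measured complement genes 4 rose and 4 fell; without the second library of cells alone 2 fell, and without the first with lysate 2 rose and 2 fell. Of 46 Rab GTPases, which direct vesicle traffic, 6 rose (13%) and 4 fell (8.7%), near the 10.2% and 11.3% of all genes tested. In every alternative fit 2 of them rose and 1 fell. Rab1a rose by 0.57 and Rab7b, of late endosomes, by 0.48, while Rab43 fell by 0.53.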
